A study of Sus scrofa with 28 samples.

Results

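FBXO32, also called atrogin-1 or MAFbx, was followed across the left lungs of 10 swine. It is 1 of the 6765 genes that the array annotation names singly, and it has 2 probe sets among the 23999 that were tested. They are Ssc.4368.1.S1_at, the first probe set below, and Ssc.4368.3.S1_at, the second. The gene was selected on measured values of these same arrays, namely a lower signal at each higher dose and a higher signal in the apical lobe, so those differences are given as a description without a test.

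The swine were female, fasted from 12 h before the experiment, pre-medicated, anesthetized, intubated and supine. They inhaled air or the vapor of sulfur mustard (HD), an alkylating blister agent, for 10 min, and the lungs were taken at 12 h. The air group had 3 animals (28, 29 and 44), the low group 3 animals at 60 µg/kg (31, 32 and 33) and the medium group 4 animals at 100 µg/kg (34, 39, 41 and 42). RNA of the apical, median and caudal lobes was hybridized to the Affymetrix porcine array, giving 28 arrays, with no caudal array for animal 39 and no apical array for animal 41.

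FBXO32 is an F-box protein, the part of an SCF ubiquitin ligase that recognises the substrate, while SKP1, CUL1 and RBX1 form the rest of the enzyme. It is best known from wasting skeletal and cardiac muscle, where FOXO transcription factors, fasting and glucocorticoids raise its transcription and insulin, IGF1 and AKT hold it down. Substrates reported in muscle include the initiation factor subunit EIF3F and the myogenic factor MYOD1.

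Deposited values are signal intensities on a linear scale, whose medians ran from 55.4 to 64.2 over the arrays. Differences are in log2(signal + 16) after quantile normalization, with the standard error (SE), and a probe set is called where its Benjamini-Hochberg adjusted p from limma was under 0.05. Alveolar markers were present as the lung label says: the type 2 genes SFTPA1 and SFTPD had mean signals of 1582 and 1282 in air animals, and the type 1 marker PDPN had 1284. The tissue was bulk lung, in which fewer FBXO32-expressing cells and less FBXO32 RNA per cell cannot be told apart. The number of arrays limits the precision, and the labels name no batch.

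In air-breathing lungs, the first probe set gave 265, 176 and 227 in the apical, median and caudal lobes of animal 28. Animal 29 gave 333, 278 and 262 in the same order. Animal 44 gave 408, 311 and 240. The apical lobe was the brightest of each air animal, and the lowest air value was that of the median lobe of animal 28.

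After the low dose the same probe set gave 184, 97.8 and 143 in the apical, median and caudal lobes of animal 31. Animal 32 gave 153, 137 and 76.8. Animal 33 gave 176, 186 and 97.5. The apical and caudal values of the low animals lay below all air values of the same lobe, and in the median lobe the groups overlapped, since the highest low value (186, animal 33) exceeded the lowest air value (176, animal 28).

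After the medium dose, animal 34 gave 127, 76.2 and 58.5 in the apical, median and caudal lobes. Animal 42 gave 76.1, 32.6 and 34.5. Animal 39 gave 112 in the apical and 66.2 in the median lobe, and animal 41 gave 65.2 in the median and 67.0 in the caudal lobe. No medium array reached the lowest low-dose or air array of its lobe, and animal 42 held the lowest value in every lobe.

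**Figure D1:**
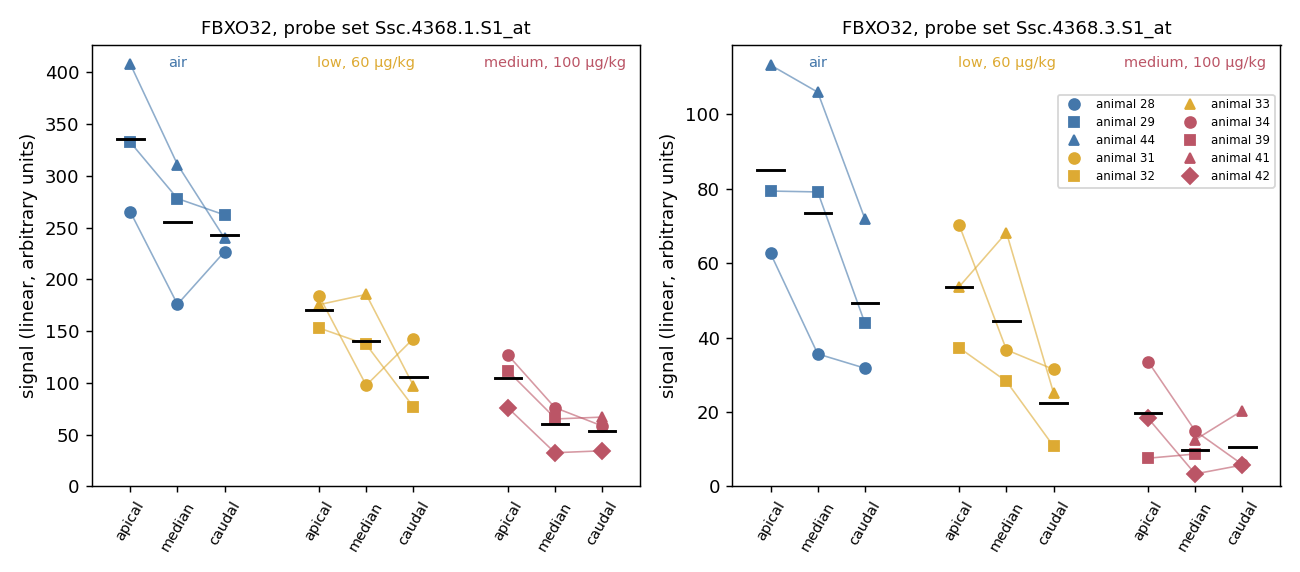
Deposited signal (linear, arbitrary units) of both FBXO32 probe sets in all 28 arrays, by exposure and lobe. Points of 1 animal share a symbol and are joined by a line, and black bars are group means. In the left panel, air arrays lie between 176 and 408, low-dose arrays between 76.8 and 186, and medium-dose arrays between 32.6 and 127.

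Averaged over the lobes of each animal, this signal was 278 ± 49.7 in air (SD, n = 3), 139 ± 15.4 in low (SD, n = 3) and 72.5 ± 19.5 in medium animals (SD, n = 4). The low mean was thus 50.0% and the medium mean 26.1% of the air mean, and the animal values of the 3 groups did not overlap. On the log2 scale the lobe-adjusted animal values were 8.16 ± 0.26, 7.23 ± 0.15 and 6.41 ± 0.34 in air, low and medium.

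The 9 groups of exposure and lobe ranked by mean signal as air apical (335 ± 71.4), air median (255 ± 70.4), air caudal (243 ± 17.9), low apical (171 ± 16.02), low median (140 ± 43.9), low caudal (106 ± 33.8), medium apical (105 ± 26.2), medium median (60.1 ± 18.9) and medium caudal (53.3 ± 16.9), with SD and n = 3 except 4 in medium median. Of neighbours in this order, air caudal and low apical were the only pair whose single values did not overlap. Overlap of single values leaves out that lobes of 1 animal are paired, and the differences within animals follow.

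The second probe set gave 62.6, 35.6 and 31.8 in the apical, median and caudal lobes of animal 28, 79.4, 79.2 and 43.9 in animal 29, and 113, 106 and 71.9 in animal 44. In low animals it gave 70.2, 36.7 and 31.5 (animal 31), 37.3, 28.3 and 10.8 (animal 32), and 53.7, 68.2 and 25.1 (animal 33). In medium animals it gave 33.6, 14.9 and 5.92 (animal 34), 18.4, 3.38 and 5.77 (animal 42), 7.60 apical and 8.73 median (animal 39), and 12.6 median and 20.4 caudal (animal 41). Air and medium arrays did not overlap in any lobe, whereas air and low overlapped in the apical and median lobes and low and medium in the caudal lobe.

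Animal means of the second probe set were 69.3 ± 26.9 in air (SD, n = 3), 40.2 ± 12.9 in low (SD, n = 3; 58.0% of air) and 12.995 ± 5.06 in medium animals (SD, n = 4; 18.8% of air). Air animal 28 (43.4) lay below low animals 31 (46.1) and 33 (49.0) on this measure. In the medium arrays the second probe set had a median signal of 10.6, at a median percentile of 19.7 within the array. Lower quartiles of the arrays were 12.1 to 19.0, so its medium values and their ratios lie near the floor. Over the 28 arrays the probe sets had a Pearson r of 0.936 and a Spearman rho of 0.940, and r was 0.746 once the mean of each exposure and lobe group was removed. Both probe sets were hybridized with the same RNA, so the second is no independent sample of the animals.

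Fitted over animals, the medium minus air difference of the first probe set was -1.74 (SE 0.19), the largest negative difference of the 23999 probe sets, and that of the second probe set was -1.56 (SE 0.24), the next in rank. Low minus air was -0.93 (SE 0.20) and -0.64 (SE 0.26), and medium minus low -0.81 (SE 0.19) and -0.91 (SE 0.24). The comparisons share their groups, and each value entered the choice of the gene. For the first probe set the medium minus air difference was -1.52 (SE 0.20) in the apical, -1.82 (SE 0.27) in the median and -1.95 (SE 0.23) in the caudal lobe, each fitted alone. The second probe set did not share this order, with -1.53 (SE 0.28), -1.72 (SE 0.30) and -1.38 (SE 0.27) in the same lobes.

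As background, limma called 31 of 23999 probe sets in medium against air, or 0.129%, of which 9 were lower. In medium against low it called 1, or 0.00417%. In low against air it called 0, or 0%, with 1780 at an unadjusted p under 0.05. These shares are printed for scale, since FBXO32 was picked on the same contrasts.

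In single animals the apical lobe exceeded the caudal lobe in all 8 pairs for the first probe set, with a mean log2 difference of 0.64 ± 0.30 (SD, n = 8) and signal ratios from 1.17 to 2.21. The mean was 0.43 in air (n = 3), 0.65 in low (n = 3) and 0.94 in medium animals (n = 2). The apical lobe exceeded the median lobe in 8 of 9 pairs, by 0.48 ± 0.32 (SD, n = 9), and low animal 33 was the exception at -0.03. In each of the 3 air animals the apical lobe thus exceeded both other lobes.

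The second probe set was higher in the apical than the caudal lobe in 8 of 8 animals, by 0.77 ± 0.19 (SD, n = 8), and higher in the apical than the median lobe in 7 of 9, by 0.34 ± 0.39 (SD, n = 9). With the animal as a block, apical minus median was 0.49 (SE 0.11) for the first and 0.37 (SE 0.11) for the second probe set. Apical minus caudal was 0.64 (SE 0.11) and 0.71 (SE 0.12). For comparison, limma called 579 probe sets between the apical and median lobes, or 2.41%, and 40 between the apical and caudal lobes, or 0.167%.

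**Figure D2:**
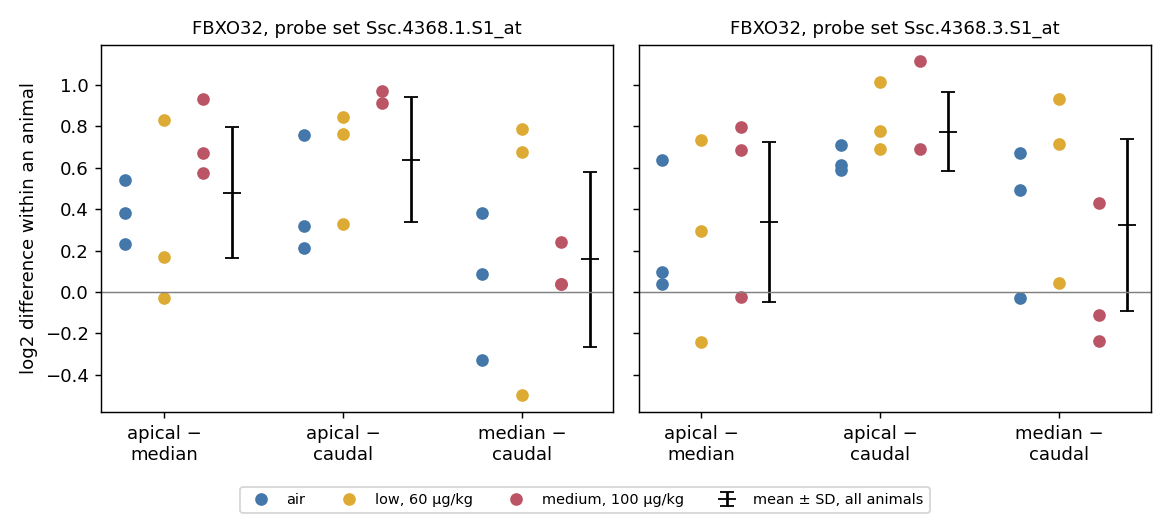
Log2 differences of FBXO32 between lobes of the same animal, each point 1 animal coloured by exposure, with the mean and SD over all animals that have both lobes, for both probe sets. All 8 apical minus caudal points lie above 0 in both panels, and the median minus caudal points lie on both sides of 0.

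The median and caudal lobes were not part of the choice and could be tested. On the normalized log2 scale the first probe set was higher in the median lobe in 7 of 9 animals, with differences from -0.50 to 0.79. In the deposited signal animals 41 and 42 were instead lower in the median lobe, at 0.973 and 0.946 of their caudal signal. The blocked estimate was 0.15 (SE 0.11, limma adjusted p = 0.613). The second probe set was higher in the median lobe in 6 of 9 animals on the log2 scale, with an estimate of 0.35 (SE 0.11, limma adjusted p = 0.236). Its animal 28 was at -0.03 on that scale, though its deposited signal ratio was 1.12. Neither passed the threshold, nor did any probe set of the array, as limma called 0 of 23999, or 0%, with 2786 at an unadjusted p under 0.05.

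Whether the lobe pattern of FBXO32 changed with exposure was tested by the interaction of exposure and lobe. The moderated F was 1.16 (limma adjusted p = 0.865) for the first probe set and 0.796 (limma adjusted p = 0.920) for the second probe set. In the first probe set the medium minus air difference was 0.36 (SE 0.26) more negative in the median than in the apical lobe and 0.45 (SE 0.27) more negative in the caudal than in the apical lobe, so an interaction of that size was not resolved by 10 animals. In the second probe set the same terms were -0.29 (SE 0.28) for the median and -0.03 (SE 0.29) for the caudal lobe. Over all probe sets limma called 0 interactions, or 0%, with 1773 at an unadjusted p under 0.05.

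The order for which FBXO32 was picked, air over low over medium and apical over both other lobes, was found in the fitted differences of 2268 of the 23999 probe sets, whatever their size.

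The partners of FBXO32 in the SCF enzyme were measured for 18 of 25 listed genes of the core and of the neddylation cycle that activates cullins. None was called in any exposure or lobe contrast, where at most 2.41% of all probe sets were called. Over all lists 0 of 269 measured genes were called in medium against air, where 0.129% of all probe sets were. At that share, a list with 0 calls between exposures cannot be told from the rest of the array. CUL1, the cullin scaffold, had mean signals of 370, 363 and 397 in air, low and medium animals, and medium minus air was 0.10 (SE 0.07; limma adjusted p = 0.529). NAE1 and UBA3, the subunits of the NEDD8-activating enzyme, had medium minus air differences of 0.21 (SE 0.10) and 0.20 (SE 0.15). The median over the list was 0.02, against -0.0006 over all probe sets, and 11 of 18 genes were above 0. SKP1 and RBX1 were not named singly by the annotation.

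Of 69 other F-box genes listed, 23 were measured and 0 were called between exposures. FBXO31, a cell cycle regulator, had 154, 212 and 255 in air, low and medium (medium minus air 0.65, SE 0.23, limma adjusted p = 0.203). FBXL4, a mitochondrial F-box protein, had 51.3, 52.9 and 31.9 (-0.50, SE 0.10, limma adjusted p = 0.083). FBXL16 was higher in the apical than the median lobe by 0.42 (SE 0.09; limma adjusted p = 0.028), the 1 call among the 23 genes in this contrast (4.35%, against 2.41% of all probe sets). This call, like each of the 20 apical against median calls of list genes, was lost without any 1 of animals 44, 34, 39 or 42, while the directions held. Most of the 20 were lost without other animals too, down to FCGR1A, called in 0 of 10 such fits. KRT19 was lost only without 1 of the animals just named and stayed called in 6. For FBXL16 the difference ran from 0.35 to 0.47 leaving out 1 animal, with a limma adjusted p up to 0.0856, and over the 20 genes the highest was 0.144. In medium minus air 9 of the 23 were above 0 with a median of -0.08.

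Other ubiquitin ligases and deubiquitinases linked to muscle atrophy were measured for 10 of 26 genes, again with 0 called between exposures. FBXO21, another F-box ligase, and WWP2, a HECT ligase, had medium minus air differences of 0.31 (SE 0.23) and -0.27 (SE 0.13). STUB1, the chaperone-linked ligase CHIP, was lower in the apical than the median lobe, with a difference of -0.18 (SE 0.04, limma adjusted p = 0.036). It was the 1 call among the 10 genes in this contrast (10.0%, against 2.41% of all probe sets). TRIM63 (MuRF1), usually named beside FBXO32 in muscle, was not named singly by the annotation.

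FOXO factors and their targets were measured for 29 of 45 genes. Between the apical and median lobes 8 of the 29 rose in the apical lobe and 0 fell, 27.6% against the 2.41% called over all probe sets. They included PDK4, which diverts pyruvate from oxidation (0.63, SE 0.14, limma adjusted p = 0.028), PIK3IP1, an inhibitor of PI3K (0.47, SE 0.10, limma adjusted p = 0.026), CCNG2, an atypical cyclin (0.42, SE 0.09, limma adjusted p = 0.028), and the autophagy gene GABARAPL1 (0.36, SE 0.08, limma adjusted p = 0.032). The others were PINK1, SESN1, RBL2 and MAP1LC3B, with differences from 0.17 to 0.32. In all 22 of 29 list members were above 0, or 75.9%, against 51.3% of all probe sets. This lean was not particular to the list. It was 81.0% of 21 glucocorticoid response genes and 90.0% of 10 T and NK cell genes. Other lists leaned the other way, with 27.8% of 18 SCF core and neddylation genes and 0% of 6 airway secretory and basal genes above 0. The count of 8 rested on single animals: it was 0 without any 1 of animals 28, 44, 34, 39 or 42, and 4 without animal 32 or 41. It was 3 with an offset of 1 and 0 without the animal as a block. Each list gene stands for its brightest probe set, whereas the 2.41% includes dim ones, so the 2 shares are of unlike sets. The brighter probe sets are those with a mean level at or above the median of all. With these alone 1010 were called, against 579 over the whole array, so the share called among them was above 2.41%. Of the list 9 were called in that setting. Apical minus caudal was above 0 in 25 of 29 genes with a median of 0.11, and none was called.

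Between exposures none of this list was called. In medium minus air 10 of 29 members were above 0 and 19 below, with a median of -0.14. The median was -0.09 without animal 44, -0.06 with the 8 animals that have all lobes, -0.04 in the apical and -0.22 in the median lobe alone, and -0.24 with an offset of 1. The largest differences were -0.70 (SE 0.15; limma adjusted p = 0.084) for ANGPT2, an endothelial TIE2 ligand, and -0.66 (SE 0.30; limma adjusted p = 0.308) for TNFSF10, the death ligand TRAIL. FOXO1 had mean signals of 334, 334 and 409 in air, low and medium (0.26, SE 0.17, limma adjusted p = 0.484), and FOXO3 had 23.1, 21.95 and 19.99 (-0.17, SE 0.07, limma adjusted p = 0.289). Of the 8 genes named for the apical lobe, PDK4 had 217, 247 and 449, a difference of 0.57 (SE 0.73), and CCNG2 and PIK3IP1 had -0.54 (SE 0.14) and -0.51 (SE 0.11).

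**Figure D3:**
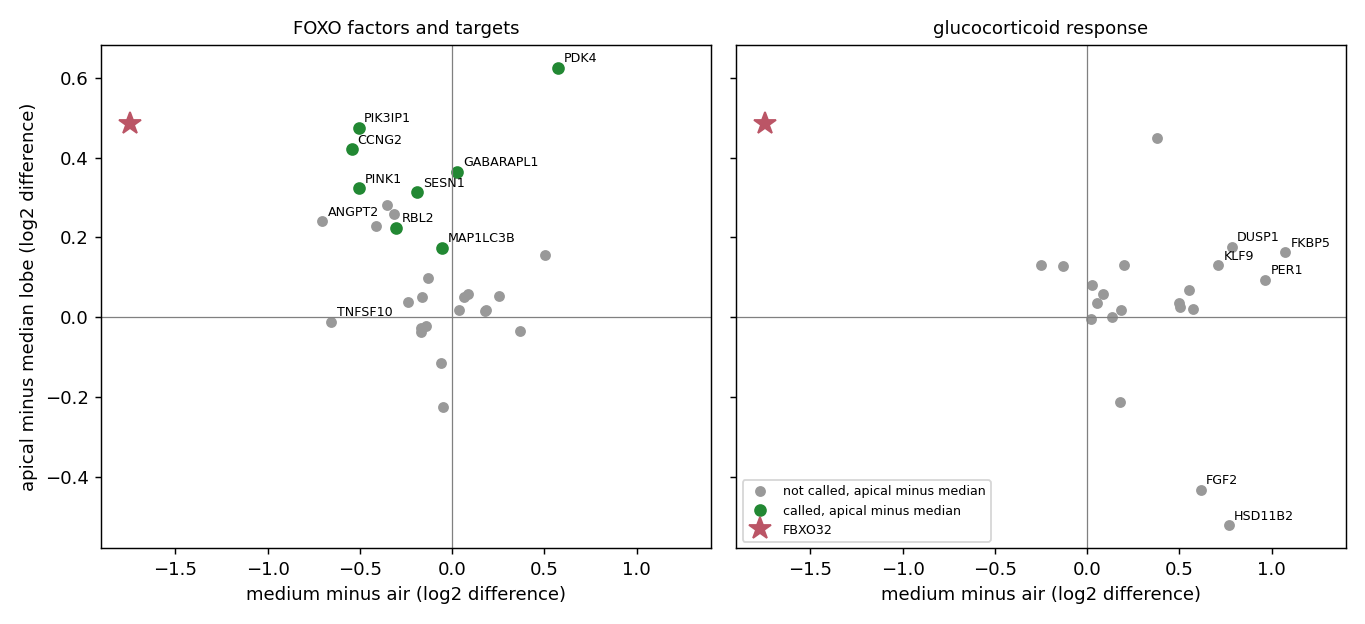
Medium minus air against apical minus median log2 difference for 29 FOXO factors and targets (left) and 21 glucocorticoid response genes (right), each point 1 gene, green where called between the apical and median lobes. FBXO32 (star, at -1.74 and 0.49) lies left of every other gene, the green FOXO targets lie above 0 on the vertical axis, and 19 of the 21 glucocorticoid genes lie right of 0.

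Glucocorticoid response genes, measured for 21 of 26, lay on the other side of 0 from FBXO32. In medium minus air 19 of 21 were above 0 (18 with the deposited scaling or with median centring), with a median of 0.38 against -0.0006 over all probe sets, and 0 were called. The median ran from 0.22 without animal 42 to 0.51 without animal 34, and was 0.24 in the caudal lobe alone. FKBP5, a receptor co-chaperone, had mean signals of 120, 143 and 353 in air, low and medium (1.07, SE 0.58, limma adjusted p = 0.389), and the clock gene PER1 had 352, 397 and 796 (0.96, SE 0.46, limma adjusted p = 0.323). The receptor gene NR3C1 had 144, 156 and 129 (-0.13, SE 0.13). In low minus air 14 of 21 were above 0 with a median of 0.10.

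The insulin, IGF1 and AKT pathway was measured for 18 of 36 genes, and 9 lay above and 9 below 0 in medium minus air with 0 called. IGF1 had 91.7, 115 and 119 in air, low and medium (0.28, SE 0.19), and AKT1 had 677, 588 and 670 (-0.03, SE 0.14). The binding proteins IGFBP6 and IGFBP5 had the largest differences, 0.60 (SE 0.16) and -0.42 (SE 0.13).

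Among genes of the TGF-beta, activin and myostatin pathway, 25 of 37 were measured and 0 were called between exposures. FSTL3, a secreted activin and myostatin antagonist, had 232, 264 and 496 in air, low and medium (0.96, SE 0.21, limma adjusted p = 0.088), and TGFB3 had 162, 170 and 281 (0.67, SE 0.21, limma adjusted p = 0.173). FSTL3 was lower in the apical than the median lobe, with a difference of -0.46 (SE 0.11; limma adjusted p = 0.037), and the coreceptor TGFBR3 was higher in the apical than the caudal lobe, by 0.49 (SE 0.08; limma adjusted p = 0.017), a call lost without animal 32 (limma adjusted p = 0.058). FSTL3 and TGFBR3 were the only lobe calls of the list, 4.0% of its 25 genes in each contrast. Over all probe sets these contrasts called 2.41% and 0.167%. The list's median in medium minus air was 0.02.

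The TNF, IL6 and NF-kappaB list was measured for 16 of 27 genes, with 0 called between exposures and a medium minus air median of 0.12. The TWEAK receptor TNFRSF12A, which signals in wasting muscle, had 172, 218 and 348 in air, low and medium (0.88, SE 0.15, limma adjusted p = 0.068). It was lower in the apical than the median lobe, with a difference of -0.58 (SE 0.15, limma adjusted p = 0.042). This was the 1 call among the 16 genes in that contrast (6.25%, against 2.41% of all probe sets). IL6 had 17.4, 23.7 and 36.7 (0.46, SE 0.24).

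Genes reported as FBXO32 substrates are controlled by it as proteins, which the array does not measure. Of 9 listed 8 were measured, 7 of them above 0 in medium minus air with 0 called. DUSP1, a MAP kinase phosphatase that also stands in the glucocorticoid list, had 1034, 1564 and 1761 (0.78, SE 0.16, limma adjusted p = 0.083), and the zinc finger factor KLF4 had 466, 587 and 713 (0.61, SE 0.17, limma adjusted p = 0.134). EIF3F was not named singly by the annotation.

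In the RefSeq gene order of pig assembly Sscrofa11.1, KLHL38 and WDYHV1 flank FBXO32. KLHL38 was not measured. WDYHV1 (-0.25, SE 0.11) and FAM91A1 (-0.12, SE 0.08), the 2 of 6 nearby genes that were measured, were not called in medium minus air.

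The genes most like FBXO32 were sought by Pearson r with the first probe set among 6324 probe sets of 5043 genes with a single symbol and at least median mean level. Over the 28 arrays, which come from 10 animals and share exposure, lobe and RNA, 37 probe sets had r above 0.8 and 43 below -0.8. The highest were PFKM, the muscle-type phosphofructokinase (r = 0.896), PROS1, the anticoagulant protein S (0.882), the tetraspanin TSPAN3 (0.871), the CSF1R ligand IL34 (0.870), the sugar mutarotase GALM (0.869) and the calcium-binding S100B (0.862). PFKM had group mean signals of 112, 95.8 and 97.2 in the apical, median and caudal lobes of air animals, 97.2, 83.8 and 82.0 in low and 81.7, 63.6 and 65.0 in medium animals. Its medium minus air difference was -0.43 (SE 0.08), against -1.74 for FBXO32, and those of GALM and S100B were -0.72 each (SE 0.20 and 0.17).

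At the other end stood the nudix hydrolase NUDT6 (r = -0.907), the Ras-like GTPase RALA (-0.897), NOP58 of the small nucleolar ribonucleoproteins (-0.888) and the ribosomal RNA processing factor RRP15 (-0.870). NUDT6 had 104, 145 and 131 in the apical, median and caudal lobes of air animals and 252, 297 and 294 in medium animals. Its lowest group mean was thus that of air apical, where FBXO32 had its highest.

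Once the mean of each exposure and lobe group was removed, so that only the spread between animals of a group was left, other genes led. CAP2, an actin-binding protein of striated muscle, had r = 0.875, followed by the lysosomal transporter PQLC2 (0.779), GPD1L (0.767), the ubiquitin and ribosomal fusion gene RPS27A (0.752), mitochondrial FAM210B (0.731) and the desuccinylase SIRT5 (0.729). CAP2 was the single gene with r above 0.8 on this measure, and 0 lay below -0.8. Unlike FBXO32, CAP2 had its highest group mean in low apical (217, against 163 in air apical and 125 in medium apical), and its low minus air difference was 0.35 (SE 0.15). The lowest were CRYBG1 (-0.771), the ribosome assembly factor WDR3 (-0.742), the coactivator CITED1 (-0.741, with r = 0.209 over the arrays) and the adhesion molecule NECTIN2 (-0.724).

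**Figure D4:**
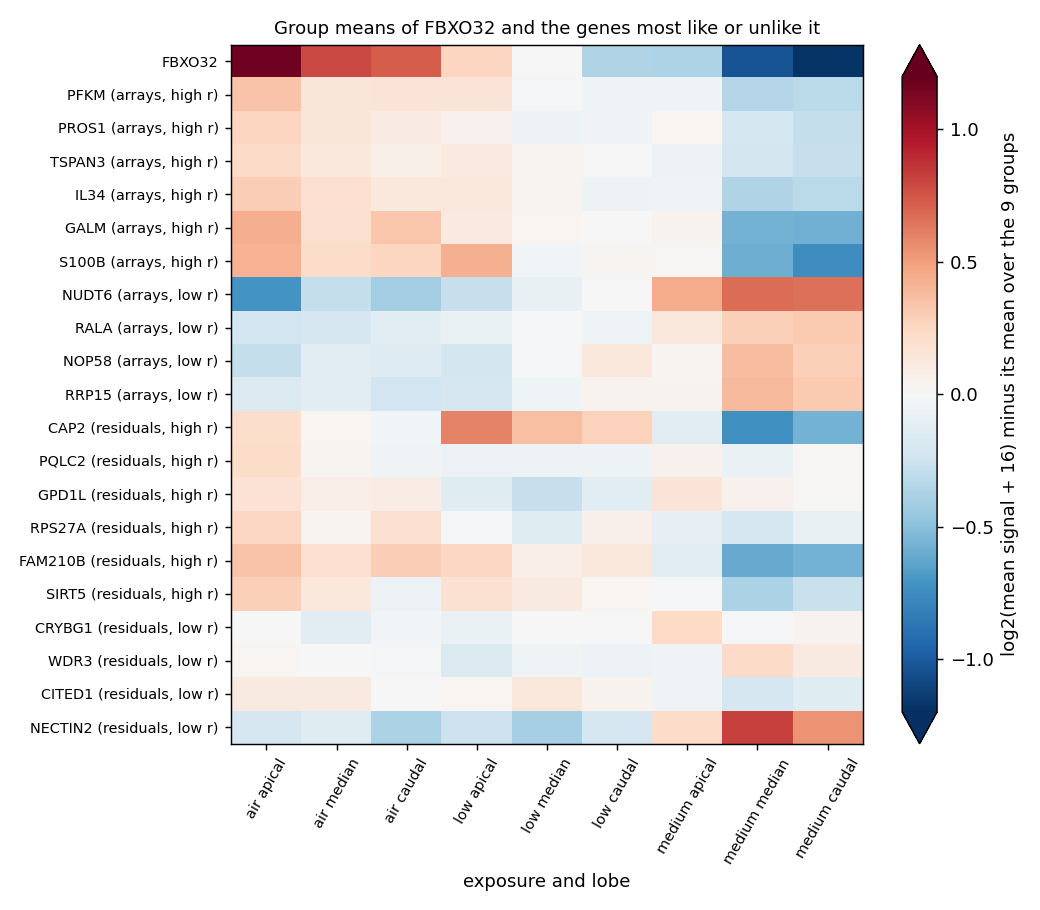
Group means of FBXO32 and of the 20 genes most like or unlike it, as log2(mean signal + 16) minus the gene's mean over the 9 groups of exposure and lobe (colour bar, log2 units). The word in brackets says whether the gene was chosen on all 28 arrays or on the residuals within groups. FBXO32 spans the widest range of colour, from air apical (335) to medium caudal (53.3).

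Markers of muscle were set beside FBXO32. Of 27 striated muscle genes 21 were measured, and 0 were called between exposures. Their summed signal per animal was 586 to 683 in air, 632 to 772 in low and 565 to 754 in medium animals, and their mean log2 level had r = -0.31 with FBXO32 within groups. No measured marker was at 0, but the fast myosin MYH2 had a mean of 1.80 in air and MYLPF 2.62, while PLN had 100.3 and CKM 72.1. ACTC1, cardiac actin, was lower in the apical lobe than in the median (-0.45, SE 0.10, limma adjusted p = 0.031) and the caudal lobe (-0.71, SE 0.11, limma adjusted p = 0.017, lost without animal 32 or 34), and PLN was higher in the apical than the median lobe (0.46, SE 0.10, limma adjusted p = 0.028). ACTC1 is thus ordered opposite to FBXO32 over the lobes. Of the 21 striated muscle genes 9.52% were called between the apical and median lobes, against 2.41% of all probe sets. Between the apical and caudal lobes 4.76% were called, against 0.167%. NPPB had the largest medium minus air difference of the list, 0.82 (SE 0.16; limma adjusted p = 0.080). Smooth muscle genes, 11 of 14 measured, summed to 10225 to 12175 in air, 11522 to 13133 in low and 11624 to 14528 in medium animals, with CNN1 at 0.44 (SE 0.17) and ACTG2 at 0.35 (SE 0.13) in medium minus air and r = 0.20 within groups.

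Lymphocyte markers were mostly below 0 in medium minus air, as FBXO32 was, without a call. T and NK cell genes, 10 of 16 measured, summed to 1840 to 1896 in air, 1378 to 2094 in low and 889 to 1630 in medium animals. In medium minus air 8 of 10 were below 0, the largest being GNLY at -1.26 (SE 0.29; limma adjusted p = 0.097) and LCK at -0.62 (SE 0.21). The 3 measured B and plasma cell genes summed to 1887 to 1930, 1476 to 1687 and 1446 to 1703. Over the 28 arrays the mean levels of these lists had r = 0.53 and 0.55 with FBXO32, and within groups r = -0.01 and 0.00. Of all marker lists the endothelial had the highest r within groups, 0.32, with -0.02 over arrays. Fibroblast genes had 0.22 and 0.04, and ciliated genes -0.15 and 0.24, in the same order. The airway secretory and basal list had r = -0.54 over arrays and its KRT19 was lower in the apical than the median lobe (-0.43, SE 0.09, limma adjusted p = 0.022). That list was measured for 6 of 16 genes and lacked SCGB1A1, MUC5B, KRT5 and TP63. The part of these cell types in the FBXO32 values was not tested.

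An index from the actin and GAPDH controls, the log2 ratio of their 3' over their 5' probe sets averaged over both genes, which is higher in less intact RNA, was 0.627 on average in air (0.478 to 0.822 over animals), 0.286 in low (0.155 to 0.508) and 0.636 in medium animals (0.203 to 1.42). With this index as a covariate, medium minus air for the first probe set was -1.74 and low minus air -0.90, and without animal 39, the highest on the index, medium minus air was -1.80.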

How the data were processed

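The authors deposited 1 linear signal intensity per probe set and array. The summarization software was not given in the sources used here. The trimmed mean (2% off each end) was 150.02 on every array. Of 24123 probe sets 124 controls were left out. The annotation named 1 gene for 10069 of the rest, several for 198 and did not list 13732. For list members with several probe sets, that with the highest mean was used.

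Signals became log2(signal + 16) and were quantile normalized, since lower quartiles differed by up to 0.317. Tests used limma 3.58.1 in R 4.3.3. Exposures were compared over 1 value per animal, its coefficient in a model of animal and lobe, with the 3 groups in 1 fit. Lobes and the interaction used the 28 arrays with the animal, whose number in the titles pairs its lobes, as a fixed block. P-values were adjusted by Benjamini-Hochberg over 23999 probe sets. Those of exposures rest on the spread between these animals. Those of lobes and of the interaction rest on the spread left within animals once the block is removed. The steps were tested on simulated data.

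Named genes were the 6 highest and 4 lowest by each r, up to 4 called list members per contrast, otherwise the 2 members with the largest medium minus air difference, and a few pathway genes given whatever their p. MYH2, MYLPF, CKM and KLHL38 were named as textbook members or neighbours after values were seen. The gene, the lists and the tests were chosen with earlier results of these data known. Alternatives were the deposited scaling, median centring, an offset of 1, the brighter probe sets, trend and robust eBayes, other models of the animal, single lobes, subsets of animals, the RNA index as a covariate, and leaving out each animal. The summaries of the FOXO and glucocorticoid lists under these settings and the list of nearby genes were added after seeing the data.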

Additional observations from a re-analysis of the deposited data

How the results depend on the processing

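FBXO32 kept its direction in each of 24 alternatives for the exposure and 21 for the lobe differences. These include the second probe set and the mean of both. All but median minus caudal entered the choice of the gene, so this is a description and no test. Some alternatives also cannot move a difference. Trend and robust eBayes and the brighter probe sets left medium minus air at -1.74. Leaving out any medium animal left low minus air at -0.93. For the first probe set medium minus air ran from -1.97 (offset of 1) to -1.52 (apical lobe alone), apical minus median from 0.39 (air animals alone) to 0.56 (offset of 1) and apical minus caudal from 0.43 (air animals alone) to 0.75 (exposed animals alone). Low minus air was -0.64 with the second probe set. Median minus caudal passed the threshold in none of 21.

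Counts of called probe sets depended more on the settings, and the cause was not tested. Medium against air gave 53 with the brighter probe sets, 2 with the 8 animals that have all lobes, 1 with only the 2 groups compared, 1037 with a random animal block, 0, 97 and 1 in the apical, median and caudal lobe alone, 91 with the RNA index and 0 to 385 leaving out 1 animal. Low against air gave 28 with the random block and 0 to 2 leaving out 1 animal. Medium against low gave 3 with the brighter probe sets, 5 with trend and robust eBayes, 2 with 2 groups, 1393 with the random block, 0, 5 and 0 in single lobes and 0 to 1373 leaving out 1 animal. Apical against median gave 205 with an offset of 1, 1010 with the brighter probe sets, 46 with 8 animals, 0 in air or exposed animals alone and 33 to 570 leaving out 1 animal. Apical against caudal gave 19 with the deposited scaling, 19 median-centred, 5 with an offset of 1, 152 with the brighter probe sets, 82 with trend and robust eBayes, 17 with 8 animals, 0 in air or exposed animals alone and 1 to 66 leaving out 1 animal. Median against caudal gave 2 with 8 animals and 0 to 3 leaving out 1 animal, and the interaction 0 to 1.

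Without the replicate block, which pairs the lobes of an animal, apical against median gave 39 calls and apical against caudal 1, while the FBXO32 differences were 0.47 and 0.65. The random block treats lobes of an animal (correlation 0.334) as partly independent. Signals near the offset, as those of the second probe set in medium animals, understate folds.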

Other observations

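Some epithelial genes outside the account of FBXO32 were called between lobes, and none of the airway and ciliated lists was called between exposures. The 6 measured genes of the airway secretory and basal list were BPIFA1, LTF, CLDN4, KRT8, KRT18 and KRT19. All were below 0 in apical minus median, and the keratins KRT19 (-0.43, SE 0.09, limma adjusted p = 0.022) and KRT18 (-0.53, SE 0.14, limma adjusted p = 0.0497) were called. That is 33.3% of the 6 genes, against 2.41% of all probe sets, which include dim ones. Listed members such as SCGB1A1, MUC5B, KRT5 and TP63 were not measured, so these values do not stand for airway secretory or basal cells as such. KRT18 had mean signals of 215, 248 and 445 in air, low and medium animals (medium minus air 0.86, SE 0.20, limma adjusted p = 0.105). The 5 measured ciliated genes were above 0 in low minus air (median 0.33) and below 0 in medium minus air (median -0.34), with 0 called in either by limma, and the difference between these medians was not tested. Plasma cell TNFRSF17, the BCMA receptor, was higher in the apical than the median lobe by 0.39 (SE 0.09, limma adjusted p = 0.030), and CD79B of the B cell receptor by 0.27 (SE 0.07, limma adjusted p = 0.044). They were 2 of the 3 measured B and plasma cell genes (66.7%, against 2.41% of all probe sets). The alveolar type 2 gene SFTPD was called lower in the apical than the median lobe, 1 of 6 measured genes of its list (16.7%). It stayed called in 1 of 10 fits that each left out 1 animal.

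The keratin and B cell lobe calls were each lost without any 1 of animals 44, 34, 39 or 42, and most also without others. Of 10 fits that each left out 1 animal, KRT19 stayed called in 6, TNFRSF17 in 4, KRT18 in 2 and CD79B in 1. Of 4 sets of 4 FBXO32 values that could be tested for a value standing apart, none passed Dixon's limit.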
